A study of Mus musculus with 16 samples.

Results

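The genes described here encode proteins that drive cell division or copy DNA, and comprise 36 genes chosen by name: cyclins and their kinases, the replicative helicase, replication fork proteins, enzymes that supply nucleotides, mitotic proteins and proliferation markers. The choice was made with earlier results of these data known. A probe set assigned to a single gene symbol was found for 34 of the 36 genes, but not for Ccnb1 and Tyms. Whether the array holds probe sets that these genes share with others was not examined. A total of 8251 genes had a probe set assigned to a single symbol, and a gene with several was represented by the brightest of them on average. Of the 34 genes, 23 had a mean log2 signal above the 40th percentile of all probe sets, which corresponds to a signal of 116. These 23 were tested among 5686 genes. The other 11 (Cks2, Mcm6, Prim1, Bub1, Aurka, Aurkb, Birc5, Kif11, Racgap1, Top2a and Hmgb2) lay under that filter and are described apart.

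RNA from retroperitoneal fat, a depot behind the abdominal cavity, was hybridised to 16 Affymetrix arrays, 8 from male and 8 from female mice. All the mice were gonadectomised (GDX), so that the vehicle controls also lacked gonads. In each sex, 2 arrays came from mice given vehicle, and 1 array each from mice given 0.1 mg of dihydrotestosterone (DHT), a potent androgen made from testosterone, under the skin 1, 3, 6, 12, 18 or 24 h before death. The labels give 24 h for the vehicle samples, and they give no strain and no age. The protocol describes collecting the fat of a whole group of mice, so that an array may represent pooled animals. Whether the paired vehicle arrays of each sex are different animals is not stated, and the p-values reflect only the scatter among these hybridised samples, part of which may be technical.

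Cells that enter the division cycle first load the Mcm helicase onto replication origins, then raise their deoxynucleotide supply and copy their DNA. Cyclin A and cyclin B with the kinase Cdk1 then drive mitosis, and the anaphase-promoting complex with its activator Cdc20 ends it. Many of these genes are transcribed mainly in dividing cells, through E2F sites, CCAAT boxes and the cell cycle genes homology region (CHR) of their promoters. Mature adipocytes rarely divide, while precursor, stromal, vascular and immune cells of fat can. In whole tissue, fewer dividing cells and less RNA per dividing cell cannot be told apart.

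RefSeq (GRCm38.p6) gave a promoter window for 31 of the 36 genes, of which 250 bases upstream of the annotated start were searched on both strands. A CCAAT box (CCAAT) was found in 25 of 31 (80.6%), against 34.5% of 27025 genes with a window. The CHR (TTTGAA) was found in 10 of 31 (32.3%, against 16.3%). An E2F site, searched as TTCCCGC and the variants with TTGGCGC or with TTCGCGC or with TTGCCGC, was likewise found in 10 of 31 (32.3%, against 7.97%). The core hexamer of the androgen response element (AGAACA) was found in 3 of 31 (9.68%, against 16.2%). Motifs can share bases, since an E2F site that starts with TTGG also holds a reversed CCAAT box where an A precedes it. Of the 7 genes called higher in females below, 4 have a window, and all 4 hold a CCAAT box, 3 a CHR, 2 an E2F site and 0 the androgen hexamer. The 120 bases before the start of these 4 genes are shown because they belong to the genes with the clearest difference; capitals mark every match to the 3 cell cycle motifs on either strand, so that ATTGG is a CCAAT box on the other strand. They lie at chr10:69352913-69353032 (minus strand) for Cdk1, chr9:70421555-70421674 (minus strand) for Ccnb2, chr4:118437344-118437463 (minus strand) for Cdc20 and chr12:24708134-24708253 (plus strand) for Rrm2, all read along the gene's own strand.
Cdk1: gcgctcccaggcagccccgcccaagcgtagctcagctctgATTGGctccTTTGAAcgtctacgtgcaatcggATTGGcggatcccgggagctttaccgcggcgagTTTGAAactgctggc
Ccnb2: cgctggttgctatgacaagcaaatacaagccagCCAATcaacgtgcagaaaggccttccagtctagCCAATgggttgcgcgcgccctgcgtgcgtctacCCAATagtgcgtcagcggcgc
Cdc20: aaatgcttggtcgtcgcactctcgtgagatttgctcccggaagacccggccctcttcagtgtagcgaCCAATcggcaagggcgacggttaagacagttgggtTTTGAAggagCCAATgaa
Rrm2: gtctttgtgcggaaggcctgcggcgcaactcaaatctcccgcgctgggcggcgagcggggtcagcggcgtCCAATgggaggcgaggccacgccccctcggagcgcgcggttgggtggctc
In these 120 bases, Cdk1 has a pair of CCAAT boxes and a pair of CHRs, Ccnb2 has 3 CCAAT boxes, Cdc20 has a pair of CCAAT boxes and a CHR, and Rrm2 has a single CCAAT box.

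One library stood apart. The second male vehicle array (called the muscle-rich array) had Pearson correlations of 0.606 to 0.701 with the rest, against 0.877 to 0.978 among the other 15, and all 17 skeletal muscle markers were highest on it. Values are therefore given for all 16 arrays and for the 15 without it. Adipoq, the adipocyte hormone that marks the tissue, had a signal between 19210 and 28660 in females and between 1946 and 31650 in males. Xist lay between 1033 and 2200 on female and between 4.74 and 61.0 on male arrays, so that the sex labels held. The control probe sets for the opposite strand had a low level, 6.38 to 6.75 on the log2 scale, on 4 arrays (male 1 h, and female 1, 3 and 6 h) and 7.64 to 9.96 on the others.

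Several division genes were higher in female than in male fat. Of the 23 tested genes, 7 were called higher in females and 0 lower: Cdk1, Stmn1, Ccnb2, Cdc20, Rrm2, Ccnd1 and Mcm4, which were 1.44 to 3.64 times as high. Of all 5686 genes, 4.63% were called higher and 1.13% lower (5.75% called in all). The comparison set 8 female against 8 male arrays in limma, on log2(signal + 16) with sex and time as terms, and a gene was called at a Benjamini-Hochberg adjusted p under 0.05 over all genes tested. The change was above 0 for 21 of 23 genes, against 52.2% of all genes, and its median was 0.55, against 0.015 for all genes. An unadjusted p under 0.05 was found for 18 of 23, against 19.9% of all genes. Because the genes were chosen with earlier results of these data known, these contrasts with all genes are a description and not a test. Without the muscle-rich array 9 of 23 were called, with Tk1 and Rrm1 added and none lost, while the share of all genes called rose to 16.6%, with 8.83% higher and 7.76% lower. The median of the 23 was then 0.50.

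**Figure D1:**
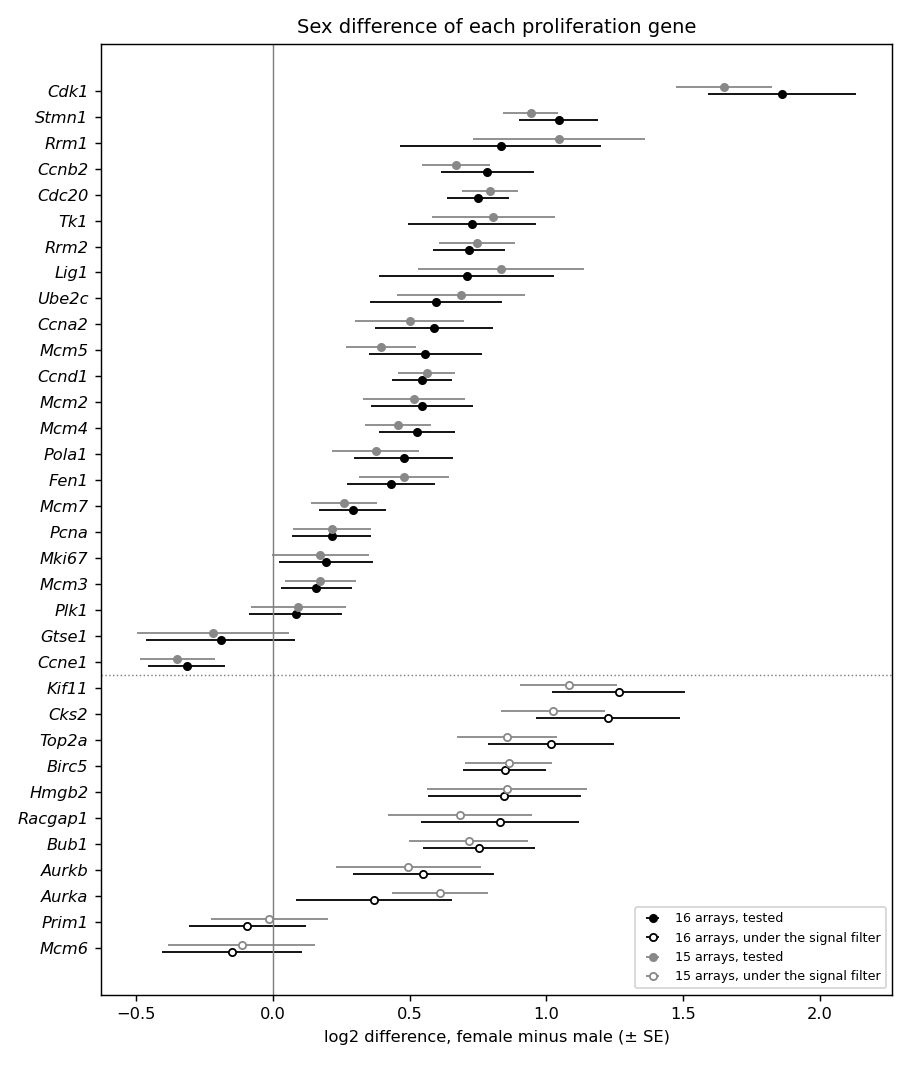
Female minus male difference of each gene with a probe set, on the log2(signal + 16) scale, as estimate and SE bar, ordered by size. Black marks are from 16 arrays and grey marks from the 15 without the muscle-rich one; filled marks above the dotted line are tested genes and open marks below it are genes under the filter, from the fit without a filter. Cdk1 lies farthest right at 1.86, and Ccne1 and Gtse1 are the tested genes left of 0.

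Among the cyclins and kinases, 3 of 5 tested genes were called. Cdk1, the kinase that starts mitosis, had signals of 328 to 500 in females (median 443) and 25.7 to 201 in males (median 134). No male array reached the lowest female array, and Cdk1 was higher in females at each of the 6 times. Its log2 change was 1.86 ± 0.27 (SE; adjusted p = 0.00186), or 1.65 without the muscle-rich array, which gave the lowest male signal. Ccnb2, a B-type cyclin that activates Cdk1, ranged from 683 to 1224 in females (median 1071) and from 305 to 704 in males (median 608). The groups overlapped at their edges, and the change was 0.78 ± 0.17 (adjusted p = 0.0185; 0.67 with 15 arrays). Ccnb2 kept its call in 10 of the 16 fits that each left out a single array, and lost it without either array of 6, 12 or 18 h. These 16 fits are not all distinct. Leaving out either array of a DHT time gave the same sex difference, because its partner alone adds nothing to that difference. Ccnd1, the cyclin that couples growth signals to entry into the cycle, ranged from 587 to 936 in females (median 780) and from 435 to 603 in males (median 532), with a change of 0.55 ± 0.11 (adjusted p = 0.0126).

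The other 2 tested cyclins were not called. Ccna2, which acts in DNA synthesis and before mitosis, ranged from 464 to 1089 in females and from 283 to 716 in males, a change of 0.59 ± 0.22 (adjusted p = 0.146). Ccne1, which acts at the entry into DNA synthesis, had the opposite sign, with 246 to 543 in females (median 374) and 309 to 633 in males (median 469), a change of -0.31 ± 0.14 (adjusted p = 0.240). The ranges of both genes overlapped over much of their width.

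Among the mitotic genes, 2 of 5 tested were called, both without overlap between the sexes. Stmn1, or stathmin, which destabilises microtubules and must be switched off for the spindle to form, ranged from 766 to 1095 in females (median 938) and from 244 to 547 in males (median 485). Its change was 1.05 ± 0.15 (adjusted p = 0.00144; 0.94 with 15 arrays). Its other probe set, with a mean signal of 33.2, gave 0.28 ± 0.20 (adjusted p = 0.588 in a fit over every probe set). Cdc20, the activator of the anaphase-promoting complex, ranged from 405 to 565 in females (median 493) and from 194 to 327 in males (median 295), a change of 0.75 ± 0.11 (adjusted p = 0.00220). The lowest Cdc20 signal was on the first male vehicle array, not on the muscle-rich one.

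The remaining mitotic genes were not called. Ube2c, the ubiquitin-conjugating enzyme of the anaphase-promoting complex, had a change of 0.60 ± 0.24 (adjusted p = 0.193), with 77.1 to 233 in females and 40.3 to 188 in males. Plk1, a kinase of the spindle poles, differed by 0.08 ± 0.17 (adjusted p = 0.841), with 268 to 456 in females and 229 to 452 in males, and its 3 probe sets disagreed. The other Plk1 probe sets gave 0.90 (adjusted p = 0.0439 in a fit over every probe set) and -0.25, and all 3 are of designs that may match related transcripts. Gtse1, a microtubule-binding protein made late in the cycle, differed by -0.19 ± 0.27 (adjusted p = 0.763). Its signals ranged from 129 to 293 in females and from 80.9 to 373 in males.

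In nucleotide supply, 1 of 3 tested genes was called. Rrm2, the cycle-dependent small subunit of ribonucleotide reductase, which makes deoxynucleotides, ranged from 128 to 187 in females (median 159) and from 78.6 to 104 in males (median 86.8). The ranges did not touch, and the change was 0.72 ± 0.13 (adjusted p = 0.00756; 0.75 with 15 arrays). Tk1, the thymidine kinase of the S phase salvage pathway, ranged from 463 to 735 in females (median 562) and from 90.0 to 550 in males (median 391). Its change was 0.73 ± 0.23 (adjusted p = 0.0970) and 0.81 (adjusted p = 0.0285) with 15 arrays. Rrm1, the large subunit of the same reductase as Rrm2, ranged from 44.5 to 321 in females and from 35.0 to 435 in males. Here the muscle-rich array held the highest signal of all, and the change went from 0.83 ± 0.37 (adjusted p = 0.235) to 1.05 (adjusted p = 0.0404) without it.

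Of the helicase subunits, 1 of 5 tested was called, while all 5 had a change above 0. Mcm4 ranged from 281 to 431 in females (median 356) and from 165 to 320 in males (median 246), a change of 0.53 ± 0.14 (adjusted p = 0.0467). It kept its call in 1 of the 16 fits that left out a single array, the one without the muscle-rich array (0.46, adjusted p = 0.0223). Mcm5, the subunit with the highest mean signal, ranged from 569 to 874 in females (median 718) and from 199 to 674 in males (median 522). Its change was 0.56 ± 0.21 (adjusted p = 0.149), and its other probe set gave -0.61. The changes of the rest were 0.55 for Mcm2, 0.29 for Mcm7 and 0.16 for Mcm3, with adjusted p-values of 0.121, 0.213 and 0.560.

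No replication fork gene was called, although all 4 tested had a change above 0. Pcna, the sliding clamp that holds DNA polymerases, ranged from 584 to 1002 in females (median 718) and from 575 to 737 in males (median 634), with nearly the same lowest signal and a change of 0.22 ± 0.14 (adjusted p = 0.457). Fen1, the nuclease that trims Okazaki fragments, had 129 to 183 in females and 69.6 to 165 in males and differed by 0.43 ± 0.16 (adjusted p = 0.152). Pola1, the catalytic subunit of DNA polymerase alpha, encoded on the X chromosome, had 107 to 181 in females and 53.2 to 143 in males and differed by 0.48 ± 0.18 (adjusted p = 0.160). Lig1, the ligase that joins the fragments, differed by 0.71 ± 0.32 (adjusted p = 0.244).

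Mki67, the gene of the proliferation marker Ki-67, was measured by probe sets that disagreed. The one used had 84.6 to 329 in females and 140 to 233 in males and a change of 0.20 ± 0.17 (adjusted p = 0.593). The other, with a mean signal of 135 against 191 for the one used, gave 1.31 ± 0.25 (adjusted p = 0.0137 in a fit over every probe set). The probe set used here is of a reduced design that meets fewer of the maker's selection rules. Over the 10 genes with several probe sets, the change was above 0 for 10 of the 12 probe sets not used.

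**Figure D2:**
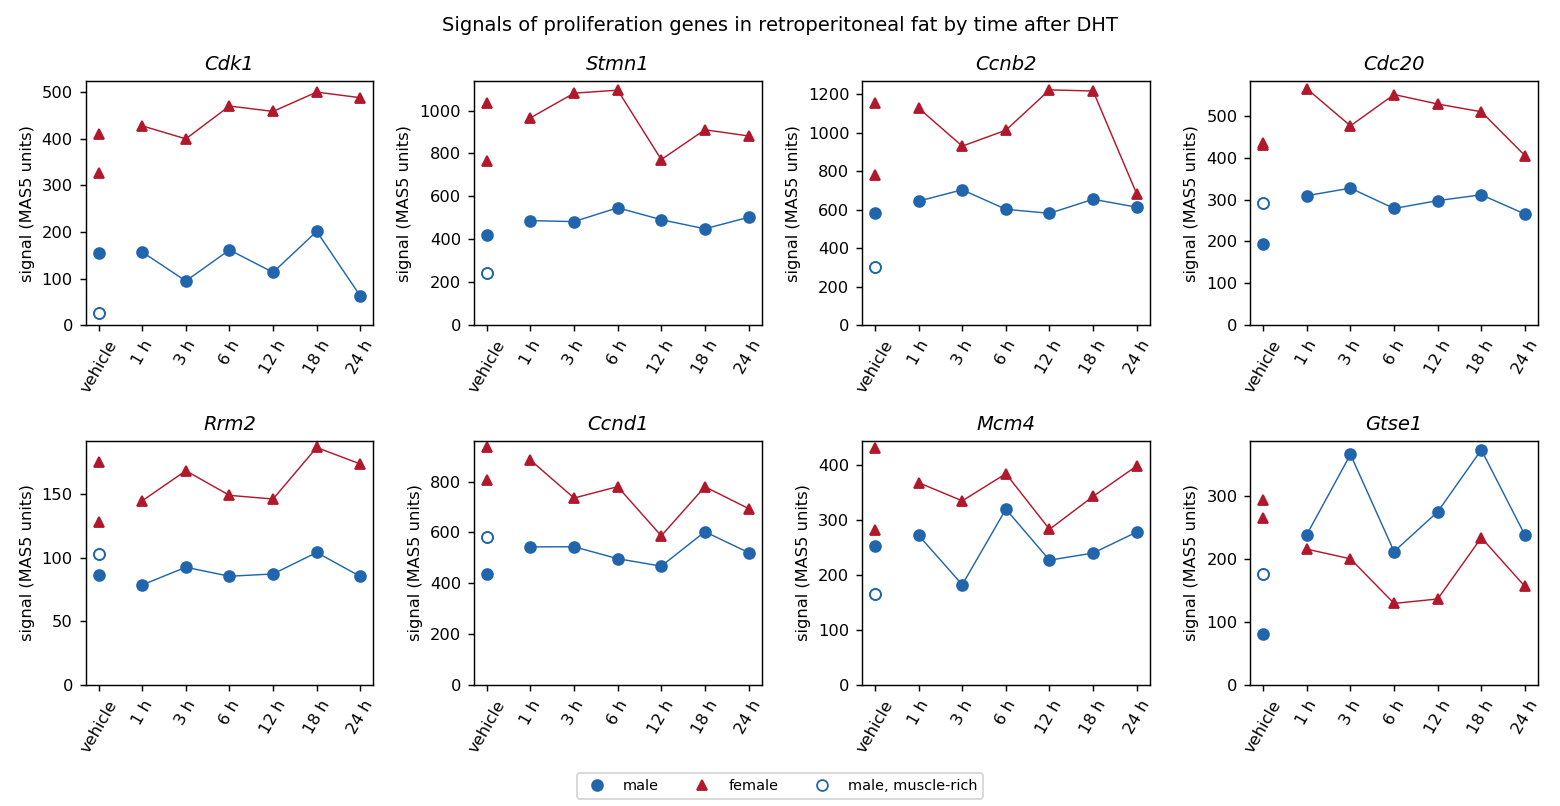
Signal on every array (vertical axis, MAS5 units, starting at 0) with vehicle and each time after DHT, for the 7 genes called higher in females and for Gtse1. Circles are male and triangles female arrays, 1 per time, the open circle is the muscle-rich array, and lines join the DHT arrays of a sex. Female arrays lie above male arrays throughout for Cdk1, whose lowest female signal is 328, while in Gtse1 the sexes change places between vehicle and DHT.

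The 11 genes under the filter were fitted with all genes and no filter, and 9 of them had a change above 0. Of these, 4 were called, where 4.16% of all genes were called in that fit. Birc5, or survivin, a subunit of the chromosomal passenger complex, ranged from 121 to 239 in females (median 159) and from 54.7 to 95.8 in males (median 86.5), a change of 0.85 ± 0.15 (adjusted p = 0.00800). Cks2, a small Cdk-binding protein, ranged from 136 to 223 in females and from 15.8 to 103 in males, with a change of 1.23 ± 0.26 (adjusted p = 0.0221). Top2a, the topoisomerase that untangles sister chromosomes, ranged from 118 to 198 in females and from 17.2 to 106 in males, with a change of 1.02 ± 0.23 (adjusted p = 0.0299). In these 3 genes every female array lay above every male array, as in 3.46% of the 5686 genes above the filter. The share among genes under the filter was not counted. Kif11, the kinesin that pushes spindle poles apart, overlapped between the sexes (84.0 to 191 and 11.3 to 117) and had a change of 1.26 ± 0.24 (adjusted p = 0.0119).

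The other 7 genes under the filter were not called with 16 arrays. Bub1, a checkpoint kinase at the kinetochore, changed by 0.75, the chromatin protein Hmgb2 by 0.85 and the cytokinesis regulator Racgap1 by 0.83, with adjusted p-values from 0.0642 to 0.150. The Aurora kinase genes Aurkb and Aurka gave 0.55 and 0.37, and Aurka was called without the muscle-rich array (0.61, adjusted p = 0.0435; 11.4% of all genes called). The helicase subunit Mcm6 and the primase subunit Prim1 gave -0.15 and -0.09. Median signals in either sex were at most 30.4 for Mcm6 and Prim1 and at most 39.1 for Bub1, close to the pseudocount of 16. The other Bub1 probe sets, with mean signals of 6.81 and 6.44, gave 0.10 and 0.13.

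The median deviation of the 23 tested genes from their own mean over all arrays lay between 0.165 and 0.374 on the 8 female arrays and between -0.326 and -0.160 on the 8 male arrays, on the log2 scale. A total of 19 of 23 genes had their highest signal on a female array, 7 of them on the female 18 h array. A total of 21 had their lowest signal on a male array, 8 on the muscle-rich and 5 on the first male vehicle array. Without overlap between the sexes, 4 of 23 lay higher in females (Cdk1, Rrm2, Cdc20 and Stmn1), against 3.46% of all genes, and 0 lay lower, against 0.915%. The female array was above the male array at each of the 6 matched times for 12 of 23, against 10.9% of all genes. Within a sex the genes correlated less: over the 253 pairs of tested genes, which share arrays and scaling, the median r was 0.30 over all 16 arrays, 0.063 over the 8 female and 0.019 over the 8 male arrays.

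The sexes were also compared within each treatment, in a fit with sex, time and a different DHT response in each sex. On the vehicle arrays alone (2 against 2), 19 of 23 genes were above 0 and 1 was called (Stmn1, 1.43 ± 0.27, adjusted p = 0.0402), against 0.739% of all genes. Without the muscle-rich array, male vehicle is a single array, assumed to vary like the other groups; 17 of 23 were then above 0, and Gtse1 was called instead (1.60, adjusted p = 0.0386; 0.844% of all genes called). On the DHT arrays alone (6 against 6), 21 of 23 were above 0 and 5 were called (Cdk1, Stmn1, Cdc20, Rrm2 and Lig1), against 2.67% of all genes. With 15 arrays 9 were called there, against 11.9% of all genes: these 5, with Ccnb2, Ccnd1 and Ube2c also higher in females and Gtse1 lower (-0.62, adjusted p = 0.0166), opposite in sign to its vehicle value. The change of Cdk1 was 2.19 on vehicle and 1.75 on DHT arrays, and with 15 arrays it was 1.17 and 1.75.

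Other genes of the same processes were counted from lists. Of 48 other mitosis genes, 22 were tested, and 5 were called higher in females and 1 lower (7 and 1 with 15 arrays), with a median of 0.50. Prc1, which bundles microtubules of the central spindle, differed most (1.33 ± 0.17, adjusted p = 0.000787), followed by the condensin subunits Smc4 (0.82) and Smc2 (0.72), the kinesin Kif22 (0.79) and the lamin Lmnb1 (0.66). Pttg1, or securin, which holds separase inactive, was lower in females (-0.54 ± 0.14, adjusted p = 0.0380). Of 44 other replication genes, 23 were tested and 2 called higher, the deoxycytidine kinase Dck (0.65) and the maintenance methyltransferase Dnmt1 (0.58), with a median of 0.19. Of 28 regulators of cycle entry, 16 were tested and 0 called by limma (1 at an unadjusted p under 0.05), with a median of 0.10. Of 18 genes that hold the cycle back, 14 were tested, and Gas1, a growth arrest protein, was called higher in females (0.94 ± 0.11, adjusted p = 0.000465).

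Markers of other cells in the tissue moved with sex too. The summed signal of the 9 fibroblast and preadipocyte markers on the array lay between 58140 and 93560 in females and between 26050 and 33250 in males, with no overlap. The collagens and Dcn made up much of that sum. Of the 9, 5 were called higher in females: Col1a2 (2.13 ± 0.13, the largest), Col1a1 (1.73), Lum (1.61), Col3a1 (1.34) and Dlk1 (0.55). The others were not called with 16 arrays: Pdgfra (0.47), Cd34 (0.46), Dcn (0.32) and Dpp4 (-0.25). The 13 macrophage markers summed to 29620 to 40330 in females and 6241 to 29230 in males, with no overlap. Of the 11 tested, 2 were called higher (7 with 15 arrays). The 7 smooth muscle markers summed to 8464 to 13080 in females and 4136 to 6865 in males, again with no overlap, and 5 were called higher. The 17 skeletal muscle markers summed to 18530 to 48810 in females and, without the muscle-rich array, to 35990 to 65500 in males, and the 10 adipocyte markers to 79380 to 101100 and to 100800 to 135200. Of these, 1 skeletal muscle and 0 adipocyte markers were called lower in females with 16 arrays (limma; 2 adipocyte markers at an unadjusted p under 0.05 in either direction), and 7 and 6 with 15 arrays. The 9 T cell markers summed to 1435 to 2096 in females and 860 to 1333 in males, with no overlap. Most of that sum was Thy1 (means of 1097 and 652), called higher, and Cd4 (396 and 212), not called. Cd3e, Cd3d, Cd3g, Cd8a, Cd8b1, Cd2 and Cd5 had signals of at most 80.1 on any array, under the filter. The B cell and endothelium lists held 0 called genes (3 and 4 at an unadjusted p under 0.05), and their ranges overlapped; with 15 arrays, 2 B cell markers were called higher in females, and 2 endothelium markers higher and 1 lower. Of the mesothelium, erythroid and exocrine pancreas lists, 1, 0 and 0 genes were called, and the 5 pancreas markers summed to 80940 on the female 12 h array and to no more than 3788 on any male array. With all 16 arrays, 9 of 23 division genes were called with the level of the skeletal muscle markers as a covariate (13.1% of all genes) and 7 with that of the macrophage markers (12% of all genes). With 15 arrays, 4 of 23 were called with the skeletal muscle level (Cdk1, Stmn1, Cdc20 and, newly, Lig1), against 3.29% of all genes. The macrophage level gave 4 as well (Cdk1, Stmn1, Cdc20 and Ccnd1), against 3.13%. With the fibroblast and preadipocyte level, limma called 0 of 23 (2 with an unadjusted p under 0.05) and 0.0176% of all genes, with the change of Cdk1 at -0.43 ± 0.89. The fibroblast level separates the sexes fully, so its part and that of sex cannot be told apart. The median log2 level of the smooth muscle markers did so too (10.01 to 10.91 in females, 8.22 to 9.77 in males). With 15 arrays the adipocyte level also did (12.15 to 12.73 and 13.05 to 13.48). These levels were not fitted as covariates. When the 4 arrays with a low opposite-strand control level were left out, limma called 0 of 23 (8 at an unadjusted p under 0.05), against 0.809% of all genes, while 22 of 23 were above 0 with a median of 0.53. With the level of those controls as a covariate on all 16 arrays, 6 of 23 were called, with Mcm4 lost, against 7.03% of all genes, and the median was 0.51.

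**Figure D3:**
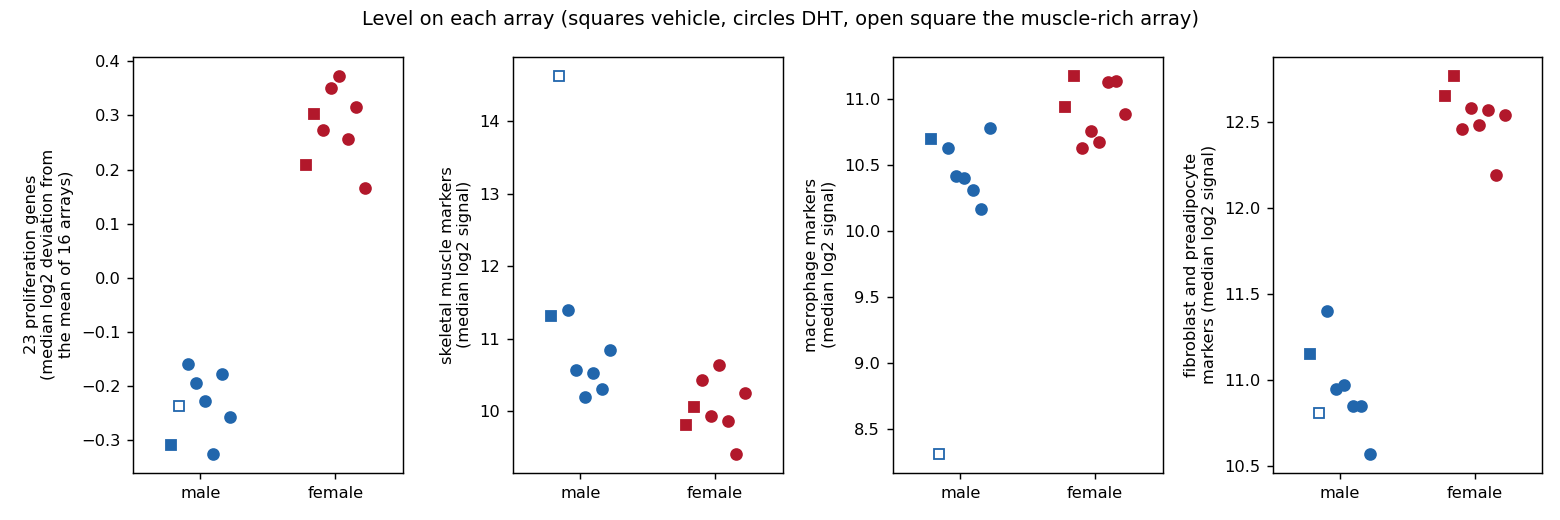
Each point is 1 array (squares vehicle, circles DHT, open square the muscle-rich array; males left, females right in each panel). The first panel gives the median log2 deviation of the 23 tested genes from their mean over 16 arrays, and the others the median log2 signal of the skeletal muscle, macrophage, and fibroblast and preadipocyte markers. The division genes and the fibroblast markers separate the sexes fully. The latter lie at 12.19 to 12.77 in females and 10.57 to 11.40 in males. The median levels of the macrophage and skeletal muscle markers overlap, while the summed macrophage signals do not.

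DHT changed none of the 23 tested genes past the threshold. Over all times, with the 12 DHT arrays against the 4 vehicle arrays, 0 of 23 were called by limma, where 0.0703% of all genes were called. The lowest adjusted p among the 23 was 0.630, and 2 had an unadjusted p under 0.05, against 5.1% of all genes. The median change was 0.22 (0.04 for all genes), and 0.071 without the muscle-rich array (0.0055 for all genes), so that this array carried much of the median. The SE of a gene's change lay between 0.13 and 0.42 (median 0.20) over all times and between 0.19 and 0.64 (median 0.30) at a single time, which limits what could be detected.

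At single times 0 of 23 were called as well, where the share of all genes called was 0% at 1 h, 0.0176% at 3 h, 0.0528% at 6 h, 0.0528% at 12 h, 0% at 18 h and 0% at 24 h. An unadjusted p under 0.05 was found for 0, 2, 0, 2, 3 and 2 of the 23 at these times, against 2.39%, 1.79%, 1.81%, 2.16%, 5.08% and 2.27% of all genes. The median changes from 1 to 24 h were 0.20, 0.15, 0.21, 0.16, 0.26 and 0.12 (0.14, 0.13, 0.070, -0.0023, 0.22 and 0.059 with 15 arrays). The 6 times share the same vehicle arrays. The F test over the 6 times called 0 of 23 (0.0528% of all genes; unadjusted, 0 of 23 against 0.95%). The late arrays (12, 18 and 24 h) against the early ones (1, 3 and 6 h) gave 0 of 23 called (0% of all genes; unadjusted, 0 of 23 against 2.57%) and a median of -0.03.

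**Figure D4:**
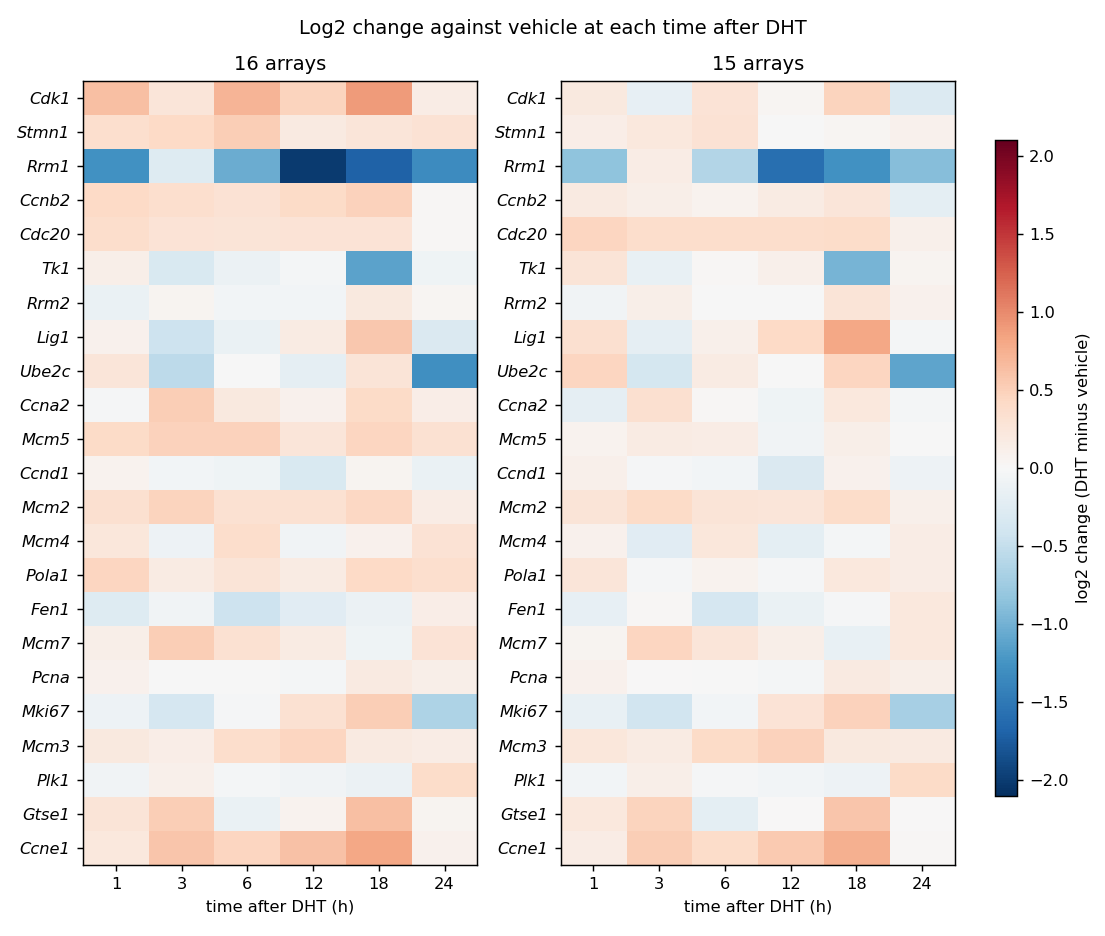
Heat map of the log2 change against vehicle of the 23 tested genes (rows) at each time after DHT in h (columns), from 16 arrays at the left and 15 at the right; red is higher and blue lower than vehicle. In the 16 arrays 7 of 138 values lie more than 1 unit from 0, all of them negative, and Rrm1 is lowest at 12 h, at -2.01.

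Rrm1 had the largest change over all times. Its signals were 89.0 and 435 on the male and 321 and 297 on the female vehicle arrays. From 1 to 24 h after DHT they were 111, 151, 42.2, 56.5, 42.5 and 35.0 in males and 78.4, 276, 269, 44.5, 98.9 and 207 in females. All 6 DHT arrays lay under the vehicle mean in each sex, but in males that mean was set by the muscle-rich array, and the first vehicle array (89.0) lay inside the DHT range. The change was -1.27 ± 0.42 (unadjusted p = 0.0118, adjusted p = 0.630), and -0.84 with 15 arrays. The other Rrm1 probe set gave 0.20 over all times. By time, the change of Rrm1 was -1.28 at 1 h, -0.27 at 3 h, -1.05 at 6 h, -2.01 at 12 h, -1.70 at 18 h and -1.32 at 24 h, and late minus early was -0.81 ± 0.42 (adjusted p = 1.000).

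Among the probe sets used, Ccne1 and Cdk1 had the largest positive changes over all times. Probe sets not used gave larger values for Ccnd1 (0.87 ± 0.27, against -0.08 for the one used) and Mki67 (0.82 ± 0.29, against -0.05). The unused Mcm5 probe set gave 0.53 ± 0.37, against 0.40. Their adjusted p was 0.719 in a limma fit over every probe set, and with 15 arrays they gave 0.70, 0.41 and 0.24. Ccne1 had 382 and 309 on the male and 252 and 339 on the female vehicle arrays, and 450 to 633 in males and 246 to 543 in females after DHT. All 6 male DHT arrays and 4 of 6 female ones lay above the vehicle mean of their sex, and the change was 0.46 ± 0.16 (unadjusted p = 0.0147, adjusted p = 0.630). It was 0.58 at 3 h and 0.81 at 18 h. Cdk1 had 154 and 25.7 on the male and 411 and 328 on the female vehicle arrays, and its change of 0.52 ± 0.31 (adjusted p = 0.630) fell to 0.090 without the muscle-rich array.

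Tk1 had the second largest negative change over all times, -0.27 ± 0.27 (adjusted p = 0.695). Its signals were 356 and 550 on the male vehicle arrays and 735 and 526 on the female ones. A single male array, at 18 h, read 90.0, while the other 5 male DHT arrays read 353 to 489 and the 6 female ones 463 to 730. Late minus early was -0.31 for Tk1, and 0.012 without that array. The largest positive late minus early values were 0.31 ± 0.37 for Lig1 and 0.23 ± 0.20 for Mki67, neither past the threshold.

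Within each sex, DHT called 0 of 23 genes in males, against 0.0176% of all genes, and 0 of 23 in females, against 0% of all genes. An unadjusted p under 0.05 was found in males for 7 of 23, against 20.8% of all genes (2 of 23 against 3.24% without the muscle-rich array), and in females for 2 of 23, against 1.13%. The test of the difference between the female and the male response called 0 of 23 (0% of all genes; unadjusted, 2 of 23 against 6.42%). When the first male vehicle array was left out, so that the muscle-rich array alone stood for male vehicle, 5 of 23 genes were called in males (Cdk1, Ccnb2, Stmn1 and Mcm5 higher, Rrm1 lower), where 2446 of all 5686 genes were called. In the sex difference 5 of 23 were then called (Cdk1, Stmn1, Mcm5, Gtse1 and Lig1), where 1917 of 5686 were. These shares of the 23 lie below those of all genes.

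Gtse1 and Lig1 had the largest sex differences of the response. Gtse1 had 80.9 and 176 on the male vehicle arrays and 239, 366, 212, 275, 373 and 238 from 1 to 24 h after DHT. In females it had 265 and 293 with vehicle and 215, 200, 129, 136, 234 and 156 after DHT. Every male DHT array lay above both male vehicle arrays and every female one below both female vehicle arrays. How many of all genes show such a split was not counted. The female minus male response was -1.73 ± 0.38 (unadjusted p = 0.000892, adjusted p = 0.594), and -2.23 (adjusted p = 0.211) with 15 arrays. With arrays weighted by limma it was -2.14 (adjusted p = 0.0374). That fit gave the first male vehicle array a weight of 3.65, the largest of all arrays, and the muscle-rich array 0.056. Male vehicle there rested mostly on the first array, whose Gtse1 signal of 80.9 was the lowest of all.

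Lig1 ran the other way. It had 212 and 215 on the male vehicle arrays and 143, 61.5, 63.5, 130, 191 and 92.7 from 1 to 24 h after DHT, so that every male DHT array was lower than both vehicle arrays. In females it had 77.1 and 213 with vehicle and 222, 219, 331, 271, 340 and 188 after DHT. Those 6 arrays lay above the female vehicle mean, and 5 of them above both vehicle arrays. The share of all genes with such opposite shifts was not counted either. The female minus male response was 1.81 ± 0.53 (unadjusted p = 0.00582, adjusted p = 0.594), and the other Lig1 probe set gave -0.26. The next largest values were 1.04 ± 0.49 for Ube2c and -0.73 ± 0.44 for Mcm5, which was -0.11 without the muscle-rich array.

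The lists of other mitosis genes, other replication genes and regulators of cycle entry held 0 genes called for DHT over all times, with medians of 0.11, -0.0063 and 0.022. Of the 14 tested genes that hold the cycle back, 1 was called, the stress-induced Gadd45g, with 1.44 ± 0.15 (adjusted p = 0.00436), and with 15 arrays Cdkn1a, the Cdk inhibitor p21, was called as well (0.87).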

How the data were processed

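Per the submitters' processing notes, the authors summarised each probe set with MAS5 (version not given in the sources used here), and the deposited value is a linear intensity per array. All arrays had been scaled to a trimmed mean of 500 (2% trimmed at either end), and a level is thus relative to its array. Of 12488 probe sets, 66 controls were left out, and no pair of arrays held identical values. Genes were named from GEO's platform annotation, and promoters came from RefSeq (GRCm38.p6).

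Signals were turned into log2(signal + 16), which understates the changes of dim genes. The filter was the 40th percentile of mean log2 signal, a signal of 116. limma 3.58.1 (R 4.3.3) was fitted to 5686 genes with sex and time as terms (8 residual degrees of freedom) and eBayes with a trend; the fit for the sex difference added a DHT response per sex (7). Benjamini-Hochberg adjustment ran over all 5686 genes, with a threshold of 0.05. Median signals lay between 194.4 and 219.5 on female and between 184.1 and 194.5 on male arrays, so that the signal distribution shifted with sex. With quantile normalization between arrays, 6 of 23 genes were called higher in females, with Mcm4 lost, against 5.36% of all genes called. The median change of the 23 was then 0.50. No probe-level spread was used, so that the number of arrays limits the precision. The scripts were tested on simulated data.

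The members and lists were chosen with earlier results of these data known. Any member could be named; array values were given for members called in a comparison, those with the largest changes in each direction and the brightest of each role. Alternatives were the pseudocount (4 and 64), the filter (none and the 60th percentile), quantile normalization, array weights, the opposite-strand control level as a covariate, eBayes without trend, the mean of all probe sets, times as replicates, and each array left out. Marker levels as covariates, left-out array sets and fits within a treatment were added after seeing the data.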

Additional observations from a re-analysis of the deposited data

Results flagged for a closer look

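The 23 tested genes were examined over the 8 male and the 8 female arrays, 46 sets of values, for an array whose gap to the next was a large part of the range by Dixon's criterion. It was met 8 times, and chance alone meets it in about 1 in 20 sets. In 3 cases the array was the muscle-rich male vehicle array, with the lowest male signal of Ccnb2 (305.1), Mcm5 (198.8) and Stmn1 (244.4). The first male vehicle array had the lowest male Cdc20 signal, 194. The male 18 h array had the lowest male Tk1 signal, 90.0, against 353 for the next male array. The first female vehicle array had the lowest female signals of Pola1 (107.4) and Lig1 (77.13), and the female 24 h array that of Ube2c (77.11).

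The responses of 2 genes ran in opposite directions in the sexes on every array, against the vehicle mean of the sex. The male vehicle mean includes the muscle-rich array, and how many of all genes met this rule was not counted. The female minus male DHT response was 1.81 for Lig1 and -1.73 for Gtse1, and the test of this difference gave an adjusted p of 0.594 for each (limma).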

How the results depend on the processing

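The count of 7 genes called higher in females was 4 with the filter at the 60th percentile, where Cdk1, Rrm2 and Mcm4 are no longer counted, and 15 with array weights (14 higher and Ccne1 lower in females, with 21.2% of all genes called). It was 5 to 9 when single arrays were left out, 1 on vehicle arrays only, 0 without the 4 arrays with low opposite-strand controls, and 13 of 34 with no filter and 15 arrays. With the skeletal muscle level as a covariate it was 9 with 16 and 4 with 15 arrays, with the macrophage level 7 and 4, and with the fibroblast and preadipocyte level 0 with 15 arrays (0.0176% of all genes called). Cdk1, Stmn1, Cdc20, Rrm2 and Ccnd1 kept their calls in 16 of 16 fits that left out an array, which are not all distinct, as described for Ccnb2. The counts of 0 for the DHT response in males and for its difference between the sexes were 1 each with array weights and 0 to 5 each when single arrays were left out; the 5s are without the first male vehicle array, where 2446 and 1917 of 5686 genes were called. With array weights the gene called was Gtse1 in each, where 33 of all 5686 genes were called for the male response and 1 for the sex difference. Male vehicle in that fit rested mostly on its first array (weight 3.65, against 0.056 for the muscle-rich array). The counts of 0 for DHT over all times, at each time, by the F test, late against early and in females were 0 in each of the 28 or 29 alternatives run. The causes were not tested beyond the arrays or genes named.

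Signs turned as follows, female against male. With the fibroblast and preadipocyte covariate and 15 arrays, Cdk1 was at -0.43, Mcm3 at -0.71, Pcna at -0.75, Pola1 at -0.54, Lig1 at -0.21, Rrm1 at -1.69, Ube2c at -0.79 and Gtse1 at 0.41. With the macrophage covariate and 15 arrays, Pcna was at -0.042, Plk1 at -0.051, Mki67 at -0.079 and Gtse1 at 0.0018. On vehicle arrays only, Lig1 was at -0.65, Plk1 at -0.36, Ube2c at -0.18 and Gtse1 at 1.11. Gtse1 was at 0.017 without the arrays with low controls, Mcm5 at -0.024 with the mean of its probe sets, and Plk1 between -0.027 and 0.16 when single arrays were left out (-0.0081 without either 1 h array). Other probe sets gave -0.61 for Mcm5 and -0.25 for Plk1. For DHT over all times, Cdk1 was at -0.073 with array weights, and other probe sets gave 0.20 for Rrm1 (0.68 at 1 h, 0.25 at 6 h and 0.19 at 18 h) and 0.15 for Tk1. Late against early, Tk1 was at 0.31 with the mean of its probe sets, 0.94 with its other probe set and -0.64 to 0.012 when single arrays were left out, and Mki67 at -0.14 with its other probe set. In the sex difference, Lig1 was at -0.26 with its other probe set and Mcm5 at 0.076 with the skeletal muscle covariate. No paired analysis was possible because the labels give no replicate numbers that tie samples of different groups.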
